A study of Oryctolagus cuniculus with 4 samples.

Results

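The genes described here code for the contractile apparatus of smooth muscle, which scar myofibroblasts also switch on. They were taken by name from the deposited gene table, without use of any measured value. Of 10 genes sought, 8 had a row among the 13913 genes of the table, namely ACTA2, ACTG2, MYH11, MYL9, TPM1, TPM2, LMOD1 and DES. TAGLN and CNN1 were not analysed here.

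Single-cell RNA sequencing libraries of rabbit ear hypertrophic scar (HS) were compared in 2 groups of 2. The animals were female rabbits labelled as wild type, their age is not given in the labels, and every group carried scars raised by removing epidermis, dermis and perichondrium from the ventral ear. The HS group received no treatment. The drug-loaded MNs group received microneedle patches, whose tips stay in the skin and release a 5-fluorouracil derivative, weekly for 3 weeks, and the tissue was taken a week after the last patch. Cells came from ventral epidermis and dermis of 1 tissue per library. The untreated scars received no patch, so effects of the drug and of the needles cannot be told apart in this design. The study describes the tissues of a group as biologically independent, but the labels name no animals.

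In smooth muscle, myosin filaments made of the MYH11 heavy chain and regulatory light chains such as MYL9 pull on actin filaments made of ACTA2 and ACTG2. The kinase MYLK switches the myosin on, and a phosphatase switches it off. In skin these genes mark the muscle of vessel walls, the muscle that raises hairs, and some pericytes. Fibroblasts of wounds and scars take on ACTA2 when they become myofibroblasts, whose pull draws a wound together, while MYH11, LMOD1 and DES stay more closely tied to muscle cells. The table gave 1 value per gene and library, so fewer cells of a type and less RNA per cell cannot be told apart.

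The relative expression of a gene is given in units, of which a library held 1000000 in all. The sequencing depth was unknown. Mitochondrial genes took 2.75% and 2.80% of the total in HS, against 4.37% and 4.58% in drug-loaded MNs. A correction for gene length was not stated, so differences in level between genes are not reported as results. Rank by level served only to choose which list genes to name.

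All 8 contractile genes had a higher mean in drug-loaded MNs than in HS, by 1.30-fold for MYH11 to 1.61-fold for TPM2, but none passed the test across all genes. Of all tested genes, 64.6% had a positive log2 fold change. On the log2(value + 1) scale the differences ran from 0.42 in ACTG2 to 0.74 in DES. Their median was 0.54, where the median of the 9348 tested genes was 0.12. HS replicate 1 was the lowest library for every one of the 8 genes. HS replicate 2 lay close to the drug-loaded MNs libraries for several of them.

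**Figure D1:**
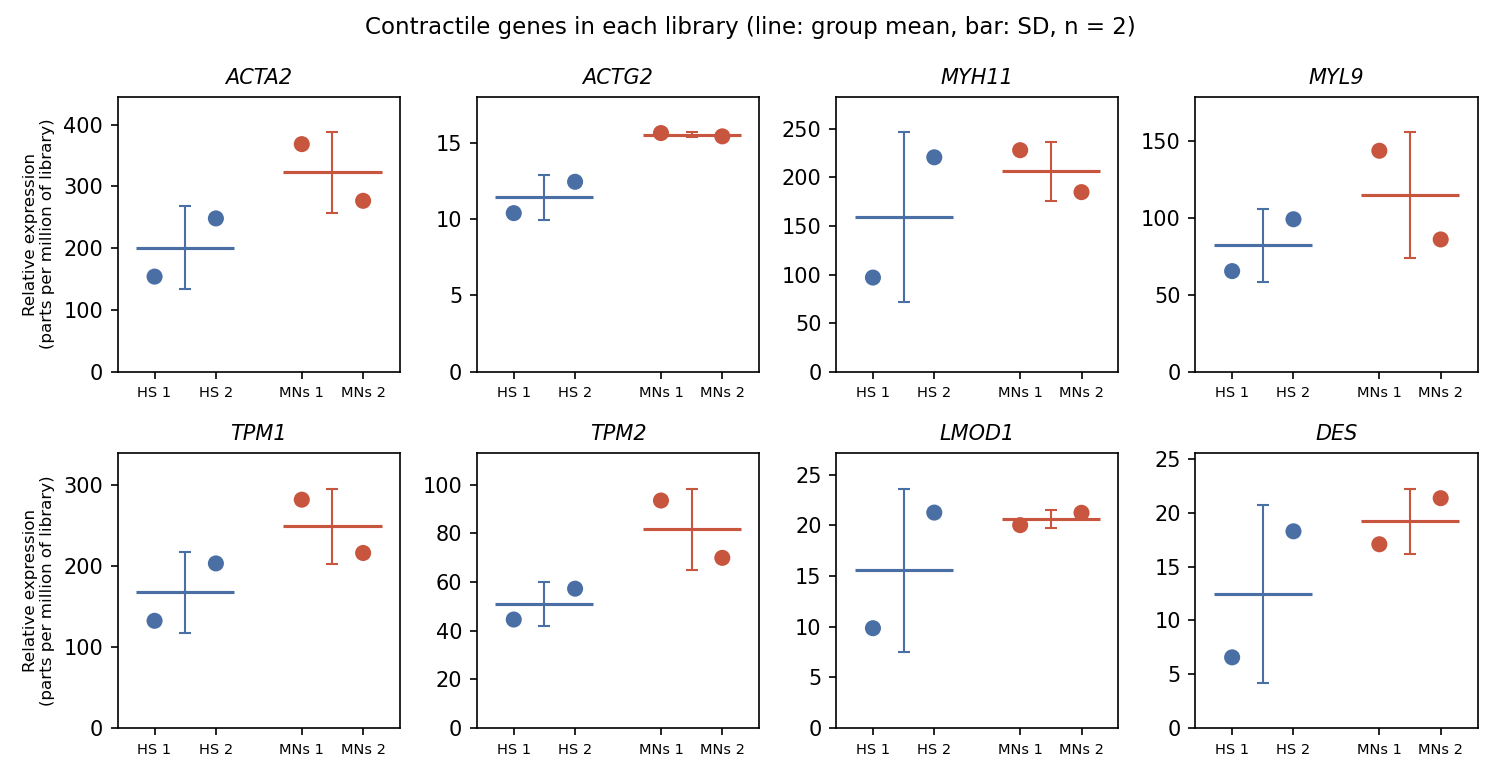
Relative expression of the 8 contractile genes in units (linear axes from 0), with 1 point per library, a line at each group mean and a bar for the SD (n = 2). HS replicate 1 is the lowest point in all 8 panels, and the groups are apart in ACTA2, ACTG2, TPM1 and TPM2.

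The actins form the thin filament. ACTA2 (ENSOCUG00000008193), the smooth muscle alpha-actin used to recognise myofibroblasts, stood at 154 and 248 units in HS and at 369 and 277 units in drug-loaded MNs. Both treated libraries lay above both untreated ones, and the lower treated library was close to the higher untreated one. The log2 fold change in limma was 0.71 (SE 0.29, 95% interval 0.025 to 1.39, adjusted p 0.554). Without HS replicate 1 it was 0.36.

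ACTG2 (ENSOCUG00000003663), the gamma-actin of visceral muscle, stood at 10.4 and 12.5 units in HS and at 15.7 and 15.4 units in drug-loaded MNs. Its treated libraries nearly coincided, and the groups did not overlap. The log2 fold change in limma was 0.42 (SE 0.26, 95% interval -0.19 to 1.03, adjusted p 0.747). The muscle actins are close relatives in sequence, and the split of reads between them by the counting was not tested. ACTC1, the cardiac actin, was listed at 0 in 3 libraries and at 0.0495 units in drug-loaded MNs replicate 2.

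Among the myosin genes, MYH11 (ENSOCUG00000013450), the smooth muscle myosin heavy chain, stood at 96.9 and 221 units in HS and at 228 and 185 units in drug-loaded MNs. HS replicate 2 lay between the treated libraries, so the groups overlapped. The HS libraries differed by 2.28-fold, against a 1.30-fold difference of the group means. The log2 fold change in limma was 0.49 (SE 0.38, adjusted p 0.806), and without HS replicate 1 it was -0.10.

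MYL9 (ENSOCUG00000000637), a regulatory light chain that MYLK phosphorylates, stood at 65.3 and 98.9 units in HS and at 143 and 85.8 units in drug-loaded MNs. The groups overlapped here too, and the treated libraries differed more than those of any other contractile gene, by 1.67-fold. The log2 fold change in limma was 0.46 (SE 0.32, adjusted p 0.774). Leaving out HS replicate 1 gave 0.16, and without drug-loaded MNs replicate 1 the value was 0.093.

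Tropomyosins lie along the actin filament and govern the access of myosin to it. TPM1 (ENSOCUG00000014122) stood at 132 and 203 units in HS and at 282 and 216 units in drug-loaded MNs. The groups did not overlap, although HS replicate 2 lay just below drug-loaded MNs replicate 2. The log2 fold change in limma was 0.59 (SE 0.28, adjusted p 0.638), and 0.28 without HS replicate 1.

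TPM2 (ENSOCUG00000010198) stood at 44.6 and 57.2 units in HS and at 93.5 and 69.9 units in drug-loaded MNs. The groups did not overlap. It had the smallest p of the 8 genes, with a log2 fold change of 0.67 (SE 0.26, 95% interval 0.070 to 1.27, limma adjusted p 0.512). With any 1 library left out, the log2 fold change lay between 0.46 and 0.88, and without HS replicate 1 it was 0.49.

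LMOD1 and DES are the other structural members. LMOD1 (ENSOCUG00000007492), leiomodin, which starts new actin filaments in smooth muscle, stood at 9.84 and 21.2 units in HS and at 20.005 and 21.2 units in drug-loaded MNs. Only HS replicate 1 stood apart from the other 3 libraries. The log2 fold change in limma was 0.48 (SE 0.36, adjusted p 0.8004), and without HS replicate 1 it was -0.042.

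DES (ENSOCUG00000000968), desmin, the muscle intermediate filament, stood at 6.57 and 18.3 units in HS and at 17.1 and 21.4 units in drug-loaded MNs. HS replicate 2 lay between the treated libraries. Its log2 fold change of 0.74 was the largest of the 8 genes, with the widest interval (SE 0.44, 95% interval -0.29 to 1.76, limma adjusted p 0.739). It was 0.060 without HS replicate 1 and 1.41 without HS replicate 2. In the RefSeq list of the rabbit assembly mOryCun1.1, DES overlaps a long non-coding RNA gene and the other genes overlap no listed gene.

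Counted over the list, 0 of 8 contractile genes passed a limma adjusted p of 0.05, where 4 of all tested genes did (0.0428%). At an unadjusted p under 0.05, 2 of 8 were higher in drug-loaded MNs (ACTA2 and TPM2), where 7.26% of all tested genes were. Both treated libraries lay above both untreated ones in 4 of 8 genes (ACTA2, ACTG2, TPM1 and TPM2), where 26.6% of all tested genes showed this. With 2 libraries a group, the smallest two-sided p of an exact permutation test is 0.333, which is why single genes were not tested that way. Under median ratio scaling the median of all tested genes moved from 0.12 to -0.011 and that of the contractile genes to 0.39, so relative to all genes they stood at 0.40 in place of 0.42, and at 0.51 under quantile normalization. The share of higher genes among all those at an unadjusted p under 0.05 was 83.9%, and 64.1% and 59.0% under these scalings.

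The gap between the HS replicates was of the same order as the group difference. It exceeded that difference in 5 of 8 genes (MYH11, MYL9, TPM1, DES and LMOD1), where 61.9% of all tested genes showed this. The log2 difference of HS replicate 2 from HS replicate 1 ran from 0.24 in ACTG2 to 1.35 in DES, with a median of 0.65, where the median of all tested genes was 0.12. All 8 genes were lowest in HS replicate 1, as were 44.4% of all tested genes. Drug-loaded MNs replicate 1 was the highest library in 6 of 8 genes, where it was highest in 40.1% of all tested genes, and LMOD1 and DES were the exceptions.

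**Figure D2:**
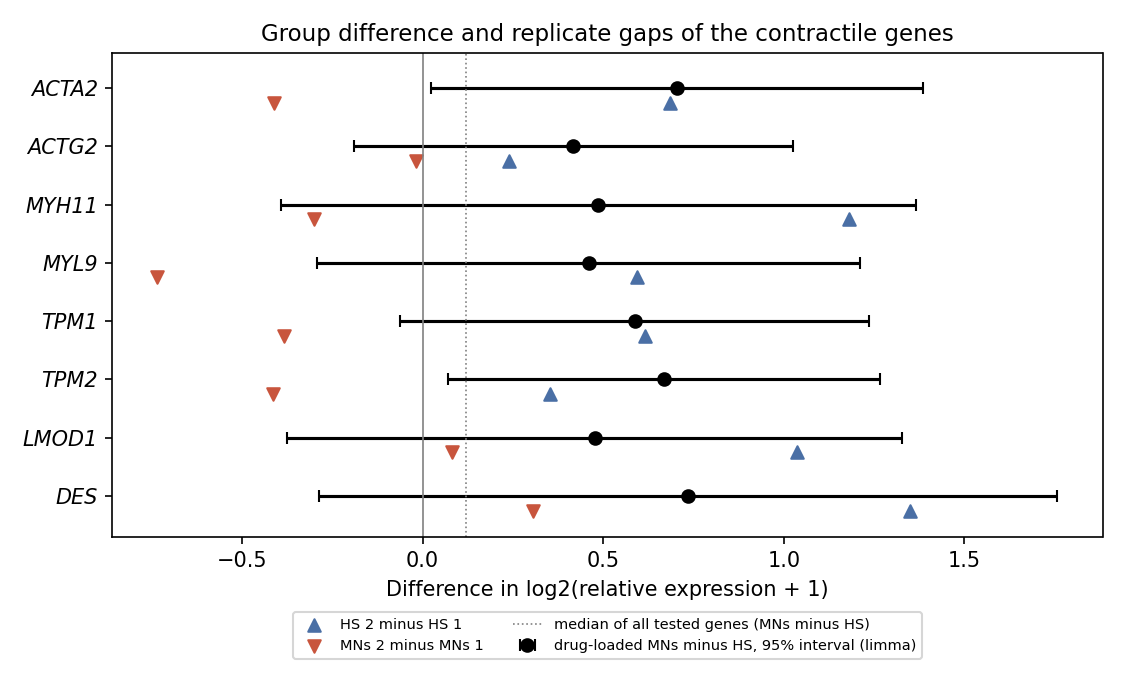
Differences in log2(relative expression + 1) for each contractile gene, with the group difference and its 95% interval from limma as black points and bars, the gap between the HS replicates as blue triangles and that between the drug-loaded MNs replicates as red triangles. The intervals of ACTA2 and TPM2 lie above 0, and the blue triangle lies right of the black point in MYH11, MYL9, TPM1, DES and LMOD1.

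Leaving out HS replicate 1 brought the median of the 8 genes to 0.22, with 6 of 8 positive and MYH11 and LMOD1 below 0. The median of all tested genes was then 0.043. Without HS replicate 2 the median was 0.94 (all tested genes 0.19), with HS replicate 1, the lowest library in all 8 genes, alone in its group. With drug-loaded MNs replicate 1 left out the median was 0.43 (all tested genes 0.064). With the other treated library left out it was 0.71 (all tested genes 0.18). No contractile gene passed the adjusted threshold in any of these fits, which take the spread of a lone library from the remaining group.

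**Figure D3:**
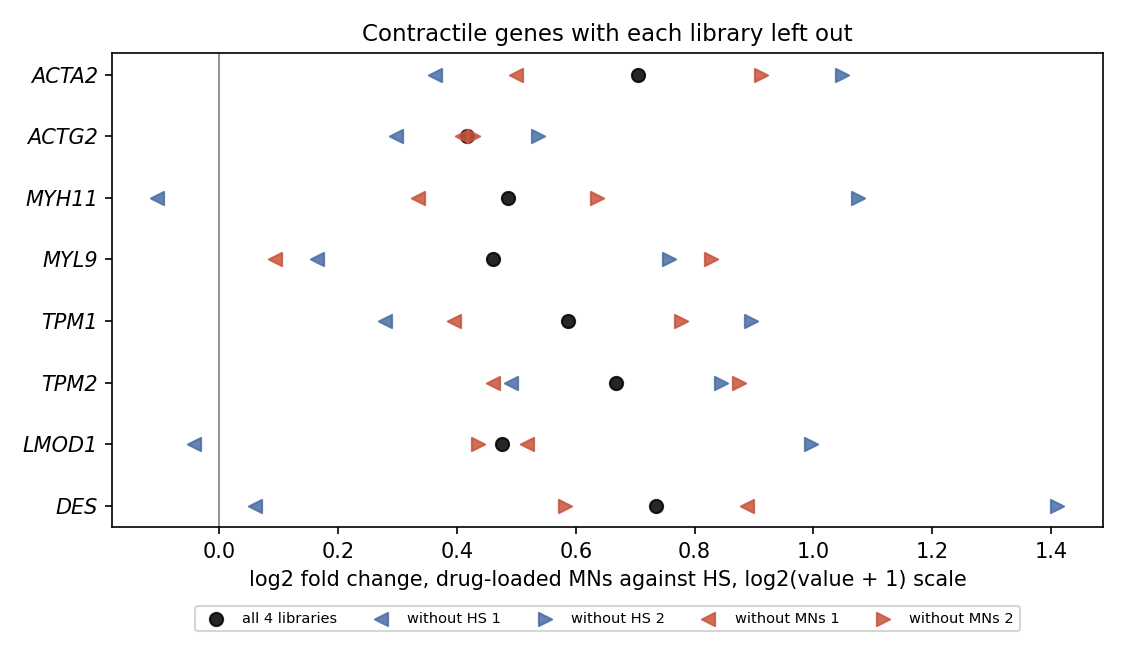
Log2 fold change of each contractile gene, drug-loaded MNs against HS on the log2(value + 1) scale, with all 4 libraries (black) and with each library left out in turn (triangles). The lowest values of ACTA2, TPM2, ACTG2 and TPM1 are 0.36, 0.46, 0.30 and 0.28, while MYH11 and LMOD1 lie below 0 without HS replicate 1.

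The 8 genes did not keep a fixed ratio to each other across libraries. Relative to the mean of all 8 genes in the same library, DES was 0.59 higher in HS replicate 2 than in HS replicate 1 on the log2 scale, and MYH11 was 0.42 higher. On the same measure ACTG2 was 0.52 lower and TPM2 was 0.40 lower. Between the groups these relative differences were smaller, from -0.15 in ACTG2 to 0.17 in DES. They compare means of 2 libraries, which vary less than single libraries. The treated replicates also differed on this measure, centred on each gene's mean over all libraries. In drug-loaded MNs replicates 1 and 2, DES stood at -0.19 and 0.35 and MYL9 at 0.20 and -0.30, while MYH11 stood at -0.0070 and -0.074.

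The enzymes and channels that turn contraction on and off were mostly higher in drug-loaded MNs as well, with no call. Of 21 tested, 19 were higher and 2 lower with a median of 0.50, 0 passed the adjusted threshold and 4 were higher at an unadjusted p under 0.05. Of all tested genes, 64.6% had a positive log2 fold change and 7.26% were higher at an unadjusted p under 0.05, which are the shares to set beside this list and those that follow. Among the genes with the highest levels, CALM2 stood at -0.12 on the log2 scale (limma adjusted p 0.929) and the small GTPase RHOA at 0.012 (limma adjusted p 0.994).

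A few genes of that list closer to muscle were chosen after their values were seen. MYLK, the myosin light chain kinase, stood at 33.3 and 66.9 units in HS and at 80.9 and 81.2 units in drug-loaded MNs. CALD1, caldesmon, which binds actin and tropomyosin, stood at 222 and 272 units in HS and at 471 and 346 units in drug-loaded MNs. EDNRA, an endothelin receptor that triggers contraction, stood at 65.7 and 108 units in HS and at 229 and 192 units in drug-loaded MNs. Their log2 fold changes were 0.77, 0.71 and 1.31, with limma adjusted p values of 0.589, 0.444 and 0.310. Over the whole list both treated libraries lay above both untreated ones in 10 of 21 genes, where 26.6% of all tested genes showed this, and genes such as PDE5A and RGS5 overlapped.

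SRF and myocardin-type cofactors drive transcription of the contractile genes. Of 10 tested regulators, 6 were higher and 4 lower in drug-loaded MNs, with a median of 0.24, 0 past the adjusted threshold and 0 at an unadjusted p under 0.05 in limma. SRF itself stood at 40.2 and 42.7 units in HS and at 35.4 and 31.6 units in drug-loaded MNs, so its groups did not overlap and its direction was opposite to that of the contractile genes. Its log2 fold change was -0.30 (limma adjusted p 0.8004). ELK4, an SRF partner, had 0.10 (limma adjusted p 0.959) and CSRP2, a LIM protein of smooth muscle, -0.26 (limma adjusted p 0.867). MYOCD, the cofactor most tied to smooth muscle and chosen after its values were seen, stood at 2.35 and 5.77 units in HS and at 6.29 and 6.72 units in drug-loaded MNs, lowest in HS replicate 1 like the contractile genes.

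Dense plaques and Z-body proteins anchor the filaments at the membrane and within the cell. Of 19 tested, 18 were higher and 1 was lower, with a median of 0.41, 0 past the adjusted threshold and 2 higher at an unadjusted p under 0.05. VIM, vimentin, which is also the intermediate filament of fibroblasts, had a difference of 0.83 (log2 fold change, limma adjusted p 0.524). TLN1, talin, which ties integrins to actin, had 0.52 (limma adjusted p 0.599), and VCL, vinculin, 0.22 (limma adjusted p 0.904).

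The non-muscle actomyosin genes, which work in every cell, had a median of 0.033, which was -0.11 under median ratio scaling, with 4 of 7 higher, 0 past the adjusted threshold and 1 higher at an unadjusted p under 0.05. PFN1, profilin, had a difference of -0.21 (log2 fold change, limma adjusted p 0.881), MYL6, a light chain shared with smooth muscle myosin, -0.064 (limma adjusted p 0.965) and TAGLN2, a transgelin of non-muscle cells, -0.48 (limma adjusted p 0.680). Within a library, the mean log2 level of the contractile genes relative to these genes was -2.43 and -1.73 in HS, against -1.61 and -1.62 in drug-loaded MNs. It was higher in both treated libraries, by 0.47 on average, where the SD of the HS libraries was 0.50 (n = 2) and HS replicate 2 lay close to the treated libraries.

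Most genes of striated muscle were at or near 0. Of 14 in the table, 11 lay under the minimum mean of 1 unit. The 3 tested ones were TPM3, which is also used outside muscle and had a difference of 0.50 (log2 fold change, limma adjusted p 0.677), TNNI1 with 0.16 (limma adjusted p 0.956) and MYH3 with 0.41 (limma adjusted p 0.861). TNNI1 and MYH3 stayed between 0.224 and 3.01 units in all libraries.

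**Figure D4:**
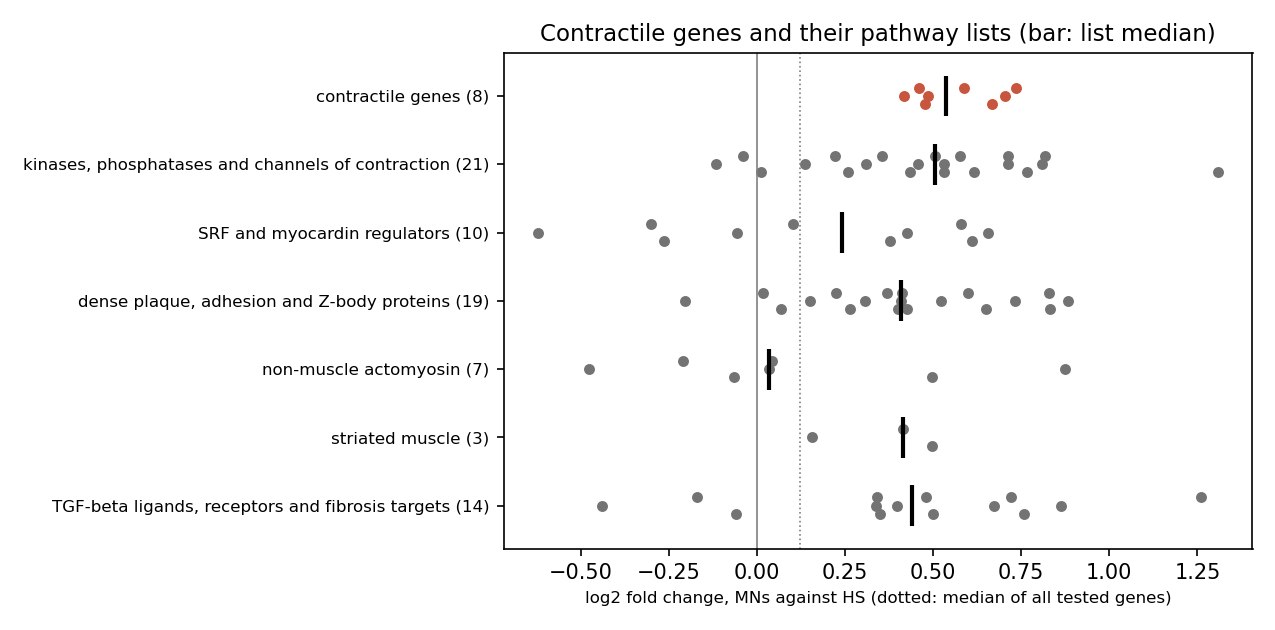
Log2 fold change, drug-loaded MNs against HS, of each tested contractile gene (red) and of each tested gene of 6 related lists (grey), with a bar at each list's median and a dotted line at the median of all tested genes (0.12). The contractile genes lie between 0.42 and 0.74, while each related list but striated muscle has genes on both sides of 0.

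TGF-beta signalling is the main known inducer of ACTA2 in fibroblasts. Of 14 tested ligands, receptors, SMADs and targets, 11 were higher and 3 lower in drug-loaded MNs, with a median of 0.44, 0 past the adjusted threshold and 4 higher at an unadjusted p under 0.05. The 3 lower genes, named after their values were seen, were the SMADs tested. SMAD2 had a log2 fold change of -0.17, SMAD3 -0.060 and SMAD7 -0.44, and the groups overlapped in each. THBS1, which activates latent TGF-beta, had a difference of 0.40 (log2 fold change, limma adjusted p 0.737), and the matricellular target CCN1 had 0.72 (limma adjusted p 0.672). CCN2, connective tissue growth factor, stood at 304 and 67.2 units in HS and at 322 and 102 units in drug-loaded MNs. It was high in replicate 1 of both groups, whereas the contractile genes were lowest in HS replicate 1.

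Markers of the cells that could carry the contractile genes were set beside them, and their part in the result was not tested. All 6 tested pericyte markers had higher means in the treated group, their median being 0.53, and 2 of them had an unadjusted p under 0.05. Their summed level was 202 and 257 units in HS, against 376 and 301 units in drug-loaded MNs, again lowest in HS replicate 1 and highest in drug-loaded MNs replicate 1. PDGFRB, the PDGF receptor of mural cells and fibroblasts, had a difference of 0.60 (log2 fold change, limma adjusted p 0.485), EBF1 0.72 (limma adjusted p 0.428) and COX4I2 0.46 (limma adjusted p 0.700). Within a library, the mean log2 level of the contractile genes relative to the pericyte markers was 0.50 and 0.77 in HS, against 0.62 and 0.71 in drug-loaded MNs, which overlapped, with a difference of 0.034.

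All 8 tested fibroblast markers had higher means in the treated group, their median was 1.12, and 7 of them had an unadjusted p under 0.05. Their summed level was 23135 and 22710 units in HS against 44922 and 48908 units in drug-loaded MNs. COL3A1 had a difference of 1.46 (log2 fold change, limma adjusted p 0.264), DCN 0.90 (limma adjusted p 0.417) and COL1A2 0.87 (limma adjusted p 0.441). Relative to these markers in the same library, the contractile genes were lower in both treated libraries, at -4.01 and -3.47 in HS, against -4.03 and -4.40 in drug-loaded MNs. The difference was -0.48, and HS replicate 1 lay close to drug-loaded MNs replicate 1.

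All 10 tested scar myofibroblast markers, which are genes of activated fibroblasts, were also higher, with a median of 0.94. Of the 10, 5 were higher at an unadjusted limma p under 0.05, where 7.26% of all tested genes were. Their summed level was 1971 and 1041 units in HS against 2577 and 2182 units in drug-loaded MNs, so the sum was lowest in HS replicate 2. The markers themselves divided, with 5 of 10 lowest in HS replicate 2 and 5 (CTHRC1, FAP, CDH11, ASPN and SFRP2, named after their values were seen) lowest in HS replicate 1 like the contractile genes. These last 5 were also those at an unadjusted p under 0.05. COL11A1 stood at 594 and 56.9 units in HS and at 415 and 316 units in drug-loaded MNs. FN1, fibronectin, had a difference of 0.33 (log2 fold change, limma adjusted p 0.901) and COL12A1 0.36 (limma adjusted p 0.834). Relative to this list the contractile genes stood at -1.30 and -0.019 in HS and at -1.05 and -1.09 in drug-loaded MNs, and the groups overlapped.

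**Figure D5:**
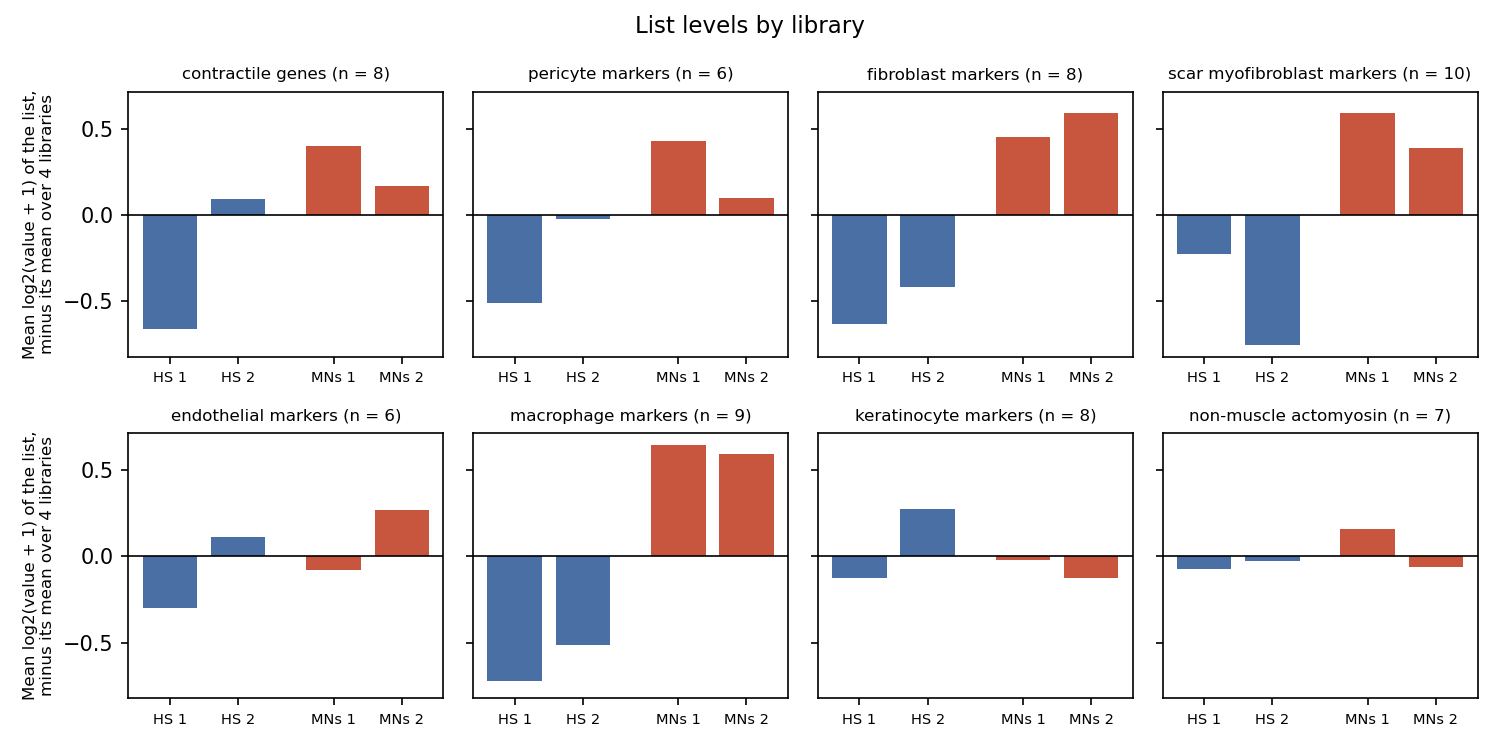
Mean log2(value + 1) of the tested genes of 8 lists in each library, minus the list's mean over the 4 libraries (bars from 0; n, genes per list). The contractile genes, the pericyte markers and the non-muscle actomyosin genes have HS replicate 1 lowest and drug-loaded MNs replicate 1 highest. Contraction enzymes, SRF regulators, dense plaque genes and Schwann cell markers, not drawn here, also had that order of mean log2 levels. Summed levels followed it for the contractile genes, pericyte markers and contraction enzymes, but not for the other lists named. Summed non-muscle genes stood at 4125 and 3455 units in HS and at 3660 and 3074 units in drug-loaded MNs. Summed Schwann cell markers stood at 462 and 157 units in HS and at 356 and 204 units in drug-loaded MNs. The fibroblast and macrophage markers are low in both HS libraries.

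Markers of other cell types were set beside the contractile genes in the same way. Endothelial markers had a median of 0.18, with 3 of 6 higher and a summed level of 198 and 203 units in HS against 152 and 205 units in drug-loaded MNs. Relative to these markers the contractile genes stood at 1.42 and 1.77 in HS and at 2.27 and 1.69 in drug-loaded MNs on the log2 scale, and the groups overlapped. Keratinocyte markers had a median of -0.11, with 2 of 8 higher and a summed level of 46341 and 60735 units in HS against 40471 and 47144 units in drug-loaded MNs. All 9 macrophage markers were higher, with a median of 1.16. Medians were 0.77 for 5 mast cell markers, 0.54 for 7 Schwann cell markers, with a mean log2 level of 3.67 and 4.05 in HS and of 4.81 and 4.05 in drug-loaded MNs, and -0.32 for 6 genes of the dissociation response. In these lists 0 genes passed the adjusted threshold, where at an unadjusted p under 0.05 there were 9 macrophage markers, 1 endothelial marker and 1 mast cell marker, all higher.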

How the data were processed

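Single-cell libraries of 2 HS and 2 drug-loaded MNs tissues were made by the authors with the 10x Genomics 3' kit. Per the labels, reads were handled in Cell Ranger 2.1.1, and the submitters' processing notes list the mouse build mm10, although the deposited genes carry rabbit Ensembl identifiers. No coordinates are therefore given. The deposited signal, named FPKM, was 1 value per gene and library and summed to 10000 per library. How cells were combined, whether gene length was corrected for and whether the batch correction named in the methods had been applied were not given in the sources used here. Only 18.5% to 21.7% of low values lay within 0.1 of whole multiples of the smallest, so reads were not recovered, no count test was run, and depth stayed unknown.

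Values were rescaled to 1000000 per library, and 9348 genes whose mean over the libraries reached 1 unit were tested. Log2(value + 1) was fitted in limma 3.58.1 (R 4.3.3; eBayes with trend, no covariate), with two-sided p-values adjusted by the Benjamini-Hochberg method over all tested genes and a threshold of 0.05. The fit was tested on simulated data. P-values measure the spread between tissues of a group only.

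The 10 genes, the 6 pathway lists and the 9 marker lists were chosen with earlier results of these data known, and no list was tested as a set. Genes were named by a rule that took all contractile genes, then the 3 highest genes by mean over all libraries in each pathway list and in the fibroblast, scar myofibroblast and pericyte lists, and any list gene past the threshold. Exceptions are stated, and 1 gene named by the rule is not reported here. Alternatives were 3 other scalings, pseudocounts of 0.1 and 5, other filters, other variance priors, the replicate number as a block and each library left out. No sequence is shown.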

Additional observations from a re-analysis of the deposited data

How the results depend on the processing

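None of the 8 contractile genes passed the adjusted threshold in any of 14 alternatives, where the smallest limma adjusted p was 0.139 (ACTA2 with the replicate block). Of the 8, 6 kept their direction throughout, while MYH11 was -0.10 and LMOD1 -0.042 without HS replicate 1, and 1.08 and 0.995 without HS replicate 2. The count of all genes past the threshold, 4, came to 0 with quantile normalization, median ratio scaling, a total without abundant genes, a pseudocount of 5 and no filter, 1 without the variance trend, 241 with the replicate block, and 0 to 38 with a library left out. Contractile genes at an unadjusted limma p under 0.05, 2, were 1 under median ratio scaling, quantile normalization, no filter and no trend, and 4 with the replicate block. Over all tested genes, 679 of 9348 were higher at that p in the main fit and 903 of 9348 with the replicate block. They were 494 of 9341 under median ratio scaling and 428 of 9344 under quantile normalization. Without the filter they were 836 of 12679, and without the trend 708 of 9348. Across genes, the deviations of replicate 1 from its group mean correlated between the groups at 0.22 over all tested genes and 0.50 over the contractile genes. This measure leaves out a shift common to the genes. For the contractile genes that shift was opposite, with a median of 0.65 for HS replicate 2 minus 1 and -0.34 for drug-loaded MNs replicate 2 minus 1. With 2 pairs the correlation does not establish pairing. With a library left out, the median of the contractile genes was 0.22 to 0.94.

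With a library left out, list medians were 0.27 to 0.66 for contraction enzymes, -0.043 to 0.61 for SRF regulators, 0.22 to 0.72 for dense plaques, -0.18 to 0.19 for non-muscle actomyosin (-0.11 under median ratio scaling), -0.11 to 0.81 for striated muscle, 0.20 to 0.68 for TGF-beta genes, 0.22 to 0.73 for pericyte, 0.94 to 1.27 for fibroblast (0.97 under median ratio scaling), 0.71 to 1.04 for scar myofibroblast, -0.15 to 0.52 for endothelial, -0.50 to 0.19 for keratinocyte, 1.10 to 1.20 for macrophage (0.94 under quantile normalization, 1.30 and 0.91 with pseudocounts of 0.1 and 5), 0.041 to 1.02 for mast cell, -0.095 to 1.19 for Schwann cell and -0.61 to -0.060 for dissociation genes. The group difference of the contractile genes relative to a list was then -0.75 to -0.21 for fibroblast, -1.05 to 0.23 for scar myofibroblast and -0.10 to 0.17 for pericyte markers. It was 0.090 to 0.67 for endothelial markers (0.77 with summed values) and 0.12 to 0.82 for non-muscle genes. The cause was not tested. Count tests were not run, because reads were not recovered. Depth limits could not be given.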
